A study of Arabidopsis thaliana with 18 samples.

Results

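Of 16548 Arabidopsis thaliana genes measured, 213 differed from the wild type (WT) in opposite directions in the line CRF6oe and in the crf6 mutant. They were chosen from the measured values themselves. For each gene, the difference CRF6oe minus WT and the difference crf6 minus WT were averaged over 3 conditions on the log2 scale, and a gene was kept when both were at least 0.5 in size and of opposite sign. Of these, 125 were higher in CRF6oe and lower in crf6 (here the crf6-low genes), and 88 were lower in CRF6oe and higher in crf6 (the crf6-high genes). A further 9 genes met the thresholds and were left out by name: STZ, COR15A, COR15B, KIN2, GH9B13, EXPB3, XTH18, UGT84A4 and UGT72E2. Both differences share the WT arrays, and because they chose the genes they are given as a description with no test.

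Seedlings of 10 days were floated on 3 mM MES buffer, and after 1 h H2O2 was added to 20 mM or the cytokinin benzyl adenine (BA) to 2 µM. Treatment lasted 6 h, and all solutions, those of the controls included, held 0.2% DMSO. The 9 groups are CRF6oe with H2O2, with BA and untreated, the crf6 mutant with H2O2, with BA and untreated, and WT (Col-0) with H2O2, with BA and untreated, each with 2 arrays. The labels name neither the promoter or number of independent lines behind CRF6oe, nor the allele of crf6, nor separate cultures for the 2 arrays of a group. The p-values therefore measure only the spread between the 2 arrays of a group, pooled over the 9 groups, and that spread may be technical. The series description states that the treatments were used to look for target genes of CRF6.

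Cytokinins are plant hormones that are perceived by membrane histidine kinases, and the signal passes through phosphotransfer proteins to response regulators in the nucleus. Cytokinin response factors (CRFs), of which CRF6 is one, form a branch of the AP2/ERF family of transcription factors, and several of them are induced by cytokinin. CRF6 is known for its induction by oxidative stress and for work linking it to the control of leaf senescence and of cytokinin-related genes under stress. A gene whose level follows the level of a transcription factor would move one way when the factor is lost and the other way when it is in excess, which is the pattern the rule looks for, whether the link is direct or not.

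CRF6 itself (AT3G61630) had no named feature, so its level was not analysed here and could not serve to check the genotype labels. Pearson's r over genes was 0.977 to 0.991 between the 2 arrays of a group. Between a CRF6oe array and any array of the other genotypes it was 0.917 to 0.947, below the 0.948 to 0.990 between different groups of crf6 and WT. The highest value of an array was 14.16 to 14.26 in CRF6oe and 13.9 to 13.99 in WT and crf6, and the cause was not tested. No batch is given, so for CRF6oe minus WT the genotype and the array set cannot be told apart. The spread of the 2 differences over all genes was also unequal, with an SD of 0.625 for CRF6oe minus WT and 0.219 for crf6 minus WT. A difference of at least 0.5 in size was found for 5390 genes in CRF6oe and for 588 genes in crf6. The same direction in both genotypes was found for 81 genes that were lower and 33 that were higher, by at least 0.5 in each. As RNA came from whole seedlings, fewer cells of a type and less RNA per cell cannot be told apart.

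Among the 125 crf6-low genes the median difference was 0.98 for CRF6oe minus WT (0.50 to 3.21) and -0.67 for crf6 minus WT (-1.44 to -0.50). Among the 88 crf6-high genes it was -1.06 for CRF6oe minus WT (-2.07 to -0.51) and 0.61 for crf6 minus WT (0.50 to 1.63). The difference was larger in size in CRF6oe than in crf6 for 97 of the 125 and 72 of the 88 genes. A 2-fold difference in both genotypes was reached by 5 crf6-low genes and by 1 crf6-high gene. Just inside the threshold were AT1G33760, AT2G12462, AT5G38710 and AT1G32920, whose smaller difference was 0.501 to 0.503 in size. Just outside were AT5G48730, AT5G25930, AT5G55050 and AT5G47370, at 0.497 to 0.499.

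**Figure D1:**
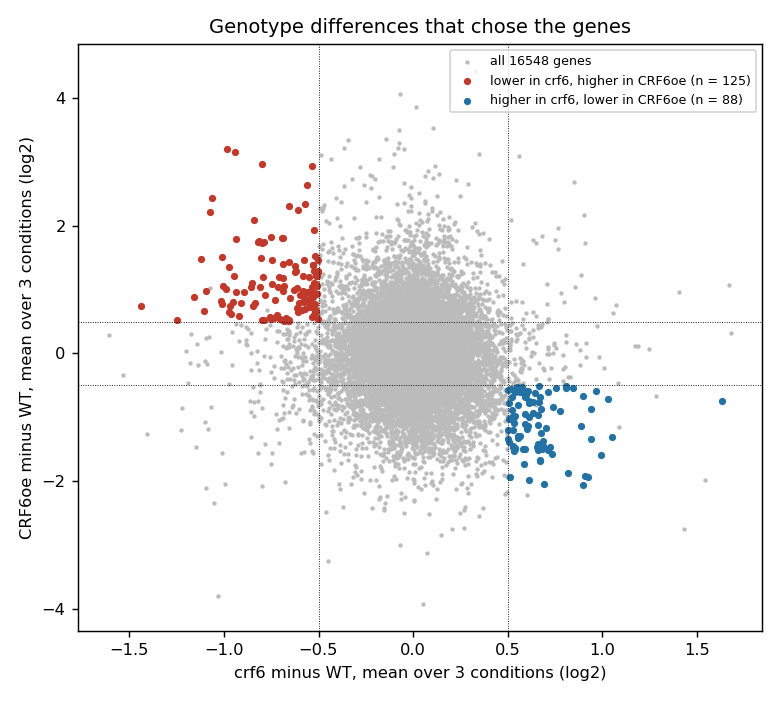
Each point is a gene, with crf6 minus WT on the x axis and CRF6oe minus WT on the y axis, both as means over 3 conditions on the log2 scale. Dotted lines mark differences of 0.5 in size, and the 125 crf6-low genes (upper left) and 88 crf6-high genes (lower right) are coloured over all 16548 genes in grey.

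Separation from WT was counted array by array, and over all genes it was already more frequent in CRF6oe than in crf6. The 6 CRF6oe arrays did not overlap the 6 WT arrays for 27 of the 125 crf6-low genes and 47 of the 88 crf6-high genes, against 19.9% of all genes. The 6 crf6 arrays did not overlap the 6 WT arrays for 7 of the 125 and 21 of the 88, against 1.16% of all genes. All 3 genotypes were separated, with WT between the others, for 17 of the 213 genes, against 0.326% of all genes. These counts come from the contrasts that chose the genes, so nothing is read from them. The 17 were 14 crf6-high genes, with THIC, SCPL49, TBL24 and PWD among them, and the 3 crf6-low genes AT2G27080, AT2G23100 and AT3G60980.

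Direction was also followed condition by condition. Every one of the 125 crf6-low genes was higher in CRF6oe than in WT with BA and untreated, with median differences of 1.39 and 1.13. With H2O2 the median difference was 0.64, and 27 of the 125 were lower in CRF6oe than in WT. In crf6 these genes were lower than in WT at medians of -0.78 with H2O2, -0.57 with BA and -0.73 untreated, and 122 to 123 of the 125 kept that direction in each condition. The crf6-high genes had median differences of -0.95 with H2O2, -1.24 with BA and -1.05 untreated in CRF6oe minus WT. Their medians in crf6 minus WT were 0.58 with H2O2, 0.60 with BA and 0.74 untreated. Both genotypes kept their direction in all 3 conditions for 93 of the 125 crf6-low and 78 of the 88 crf6-high genes. As the rule set the mean of the 3 differences, much of this agreement follows from the choice. The counts are a description, and nothing is read from them.

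**Figure D2:**
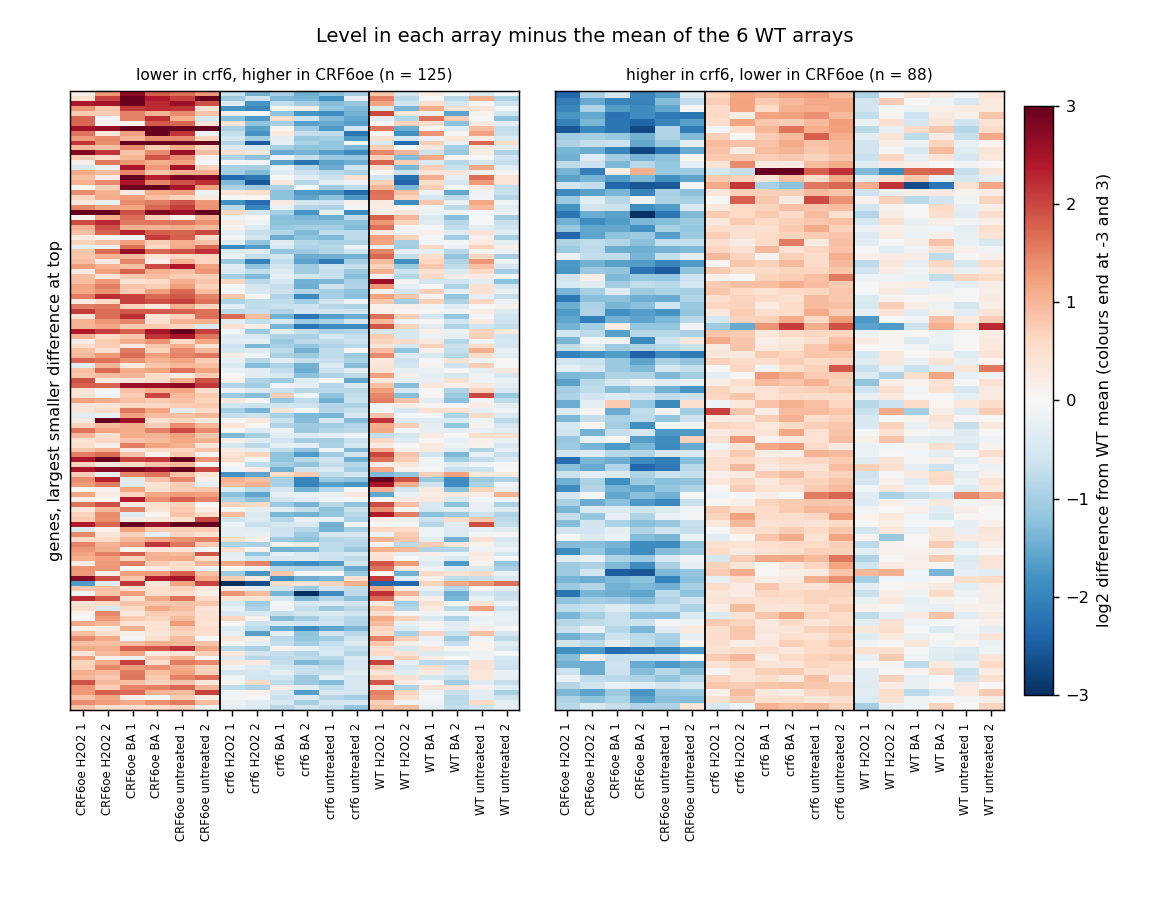
Heat map of the 213 genes (rows) in 18 arrays (columns, labelled by genotype, condition and replicate number), coloured by the log2 level minus the mean of the gene's 6 WT arrays. Colours end at -3 and 3. In the left panel the 125 crf6-low genes are mostly red in CRF6oe and blue in crf6, in the right panel the 88 crf6-high genes show the opposite, and the WT arrays numbered 1 and 2 differ from each other within each condition.

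The 2 arrays of a group did not always stand together on these genes, and for the crf6-low genes the gap was widest in WT. The WT arrays numbered 1 were above those numbered 2 for most crf6-low genes, by a median of 0.93 with H2O2 (112 of 125 genes), 0.60 with BA (107 genes) and 0.55 untreated (106 genes). Over all genes the shares above were 49.3%, 46% and 53.3% in the same conditions. For crf6-high genes the order was turned round in WT, with medians of -0.58, -0.25 and -0.48. Their medians in the same order were -0.26, 0.21 and -0.31 in CRF6oe and -0.18, -0.12 and -0.12 in crf6. Arrays of the other genotypes also differed by number on the crf6-low genes, by medians of 0.42 in CRF6oe untreated (94 of 125 genes above 0), 0.32 in crf6 with H2O2 (97 genes) and 0.35 in crf6 with BA (97 genes). In the remaining groups, CRF6oe with H2O2 or BA and crf6 untreated, it was -0.08, 0.02 and -0.07. Set against the WT arrays numbered 1 alone, crf6 minus WT had a median of -1.04 over the crf6-low genes and 0.83 over the crf6-high genes. Set against those numbered 2 alone, it was -0.35 and 0.41, and 11 of the 125 crf6-low genes were then higher in crf6. All 88 crf6-high genes stayed higher in crf6 against either. CRF6oe minus WT had medians of 0.66 and -0.87 for the 2 sets against the arrays numbered 1, and 1.36 and -1.31 against those numbered 2. Both thresholds were met against each WT number taken alone by 23 crf6-low and 25 crf6-high genes. ATL8, WRKY29, AT5G52050 and AT1G53625 were among the 23, and THIC, SCPL49 and AT5G14650 among the 25. After the data were seen, the rule was also applied without 1 WT number. Without the arrays numbered 1, 94 genes passed (65 of them among the 213), and without those numbered 2, 348 passed (143 among the 213). Such runs also rest on fewer WT arrays, so the part of this split in the choice of genes was not tested on its own. Leaving out the WT array with H2O2 numbered 1 alone gave 136 genes, 118 of them among the 213.

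**Figure D3:**
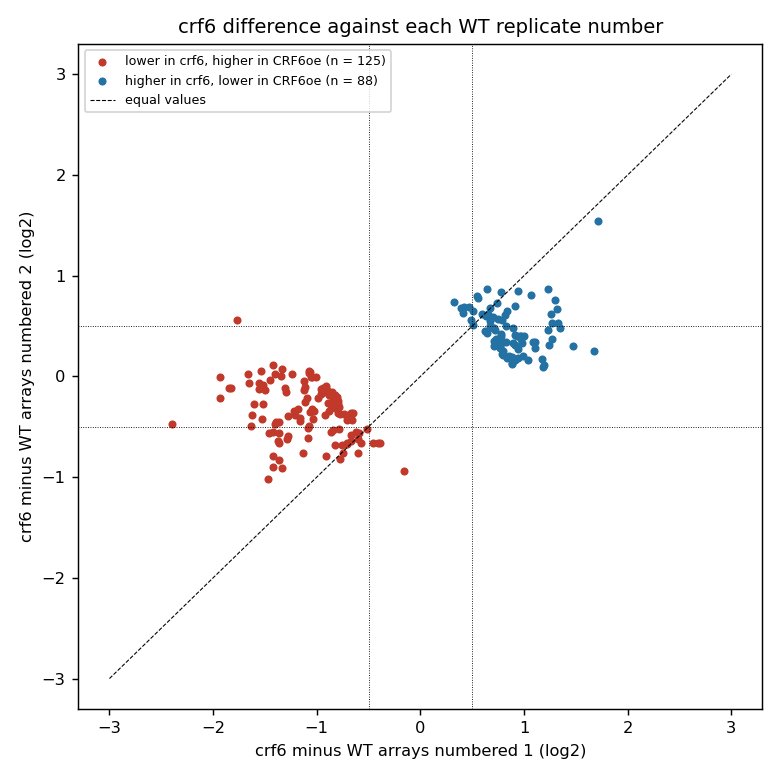
crf6 minus WT (log2, mean over 3 conditions) computed with the 3 WT arrays numbered 1 (x axis) and with the 3 numbered 2 (y axis), for the 125 crf6-low and 88 crf6-high genes. The dashed line marks equal values and dotted lines mark 0.5 in size. Most points lie nearer to 0 on the y axis than on the x axis.

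Among the 14 crf6-low genes with a gene symbol, 3 code for regulators of other proteins or genes. ATL8 codes for a member of a RING-H2 family of ubiquitin ligases. ATL8 stood at 5.70 and 5.17 with H2O2, 6.48 and 6.60 with BA and 6.54 and 4.80 untreated in CRF6oe, as log2 levels. In crf6, ATL8 stood at 2.60 and 2.43 with H2O2, 4.32 and 4.56 with BA and 3.20 and 3.03 untreated. WT arrays gave ATL8 3.93 and 2.97 with H2O2, 5.47 and 4.80 with BA and 4.76 and 4.28 untreated. In each condition both CRF6oe arrays lay above both WT arrays and both crf6 arrays lay below them, and the differences were 1.51 for CRF6oe minus WT and -1.01 for crf6 minus WT. WRKY29 is a WRKY transcription factor known from immune signalling. WRKY29 stood at 8.09 and 7.58 with H2O2, 8.25 and 8.15 with BA and 8.35 and 7.93 untreated in CRF6oe. In crf6, WRKY29 stood at 5.81 and 6.12 with H2O2, 6.80 and 6.72 with BA and 6.80 and 7.03 untreated. WT arrays gave WRKY29 6.39 and 6.58 with H2O2, 7.39 and 7.14 with BA and 7.65 and 7.61 untreated. Its crf6 difference was nearly the same against either WT number, at -0.59 and -0.56, and its mean differences were 0.93 for CRF6oe minus WT and -0.58 for crf6 minus WT. ABR1 codes for an AP2/ERF protein described as a repressor in abscisic acid responses. ABR1 stood at 8.42 and 8.05 with H2O2, 7.26 and 8.12 with BA and 8.23 and 6.83 untreated in CRF6oe. In crf6, ABR1 stood at 7.38 and 7.52 with H2O2, 5.77 and 5.30 with BA and 5.26 and 4.70 untreated. WT arrays gave ABR1 8.65 and 7.87 with H2O2, 6.83 and 5.47 with BA and 6.87 and 6.33 untreated. The CRF6oe and WT arrays of ABR1 were separate with BA, but overlapped with H2O2 and, by a narrow margin, untreated.

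GH3.3 and WES1 code for enzymes of the GH3 family that join amino acids to auxin and so lower the free hormone. WES1 stood at 7.60 and 7.18 with H2O2, 7.42 and 8.74 with BA and 9.04 and 8.18 untreated in CRF6oe. In crf6, WES1 stood at 6.21 and 6.16 with H2O2, 5.65 and 5.62 with BA and 6.09 and 5.88 untreated. WT arrays gave WES1 7.36 and 6.11 with H2O2, 6.42 and 6.31 with BA and 7.30 and 6.05 untreated. The untreated WT arrays of WES1 differed by more than the crf6 difference of -0.65, which was -0.22 against the WT arrays numbered 2. GH3.3 ranged over 5.86 to 8.09 in CRF6oe, 4.52 to 5.91 in crf6 and 4.93 to 7.21 in WT, so its arrays overlapped between CRF6oe and WT, with mean differences of 0.79 for CRF6oe minus WT and -0.91 for crf6 minus WT.

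PDF1.4, a gene of the plant defensin family of small cysteine-rich proteins, had the largest CRF6oe difference of the 213 genes. PDF1.4 stood at 8.70 and 8.80 with H2O2, 10.40 and 9.35 with BA and 9.33 and 9.75 untreated in CRF6oe. In crf6, PDF1.4 stood at 5.21 and 4.57 with H2O2, 6.24 and 5.09 with BA and 4.49 and 5.58 untreated. WT arrays gave PDF1.4 7.80 and 4.69 with H2O2, 6.24 and 5.81 with BA and 7.10 and 5.44 untreated. All 6 CRF6oe arrays lay above all 6 WT arrays, at a mean difference of 3.21, whereas the crf6 difference was -1.85 against the WT arrays numbered 1 and -0.12 against those numbered 2. TET8, a tetraspanin membrane protein found on plant extracellular vesicles, ranged over 9.23 to 9.45 in CRF6oe, 7.35 to 8.47 in crf6 and 7.69 to 9.19 in WT. TET8 also separated CRF6oe from WT fully, at 0.94 for CRF6oe minus WT and -0.52 for crf6 minus WT. EXO, which promotes growth and responds to brassinosteroid, ranged over 8.12 to 9.06 in CRF6oe, 6.32 to 8.10 in crf6 and 6.10 to 8.59 in WT. SRC2, a C2-domain protein linked to cold, ranged over 7.12 to 8.62 in CRF6oe, 6.05 to 7.54 in crf6 and 6.12 to 8.71 in WT. GSTF3, a glutathione S-transferase of a class that detoxifies reactive compounds, ranged over 5.20 to 6.31 in CRF6oe, 2.60 to 4.45 in crf6 and 3.26 to 5.78 in WT. For EXO, SRC2 and GSTF3 the arrays of CRF6oe and WT overlapped, as did those of crf6 and WT.

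The remaining crf6-low genes with symbols are a transporter, enzymes and a seed protein, given here with a second transporter gene known by locus code. SWEET2, a sugar transporter of the vacuole membrane, stood at 7.20 and 7.15 with H2O2, 7.85 and 7.96 with BA and 8.27 and 7.28 untreated in CRF6oe. In crf6, SWEET2 stood at 5.29 and 5.12 with H2O2, 6.22 and 5.85 with BA and 5.58 and 5.38 untreated. WT arrays gave SWEET2 6.53 and 5.60 with H2O2, 6.48 and 6.12 with BA and 6.20 and 5.59 untreated. All CRF6oe arrays lay above all WT arrays, and the crf6 difference of -0.52 became -0.20 against the WT arrays numbered 2. AT5G52050, listed as DTX50 in the RefSeq gene table and named there as a detoxification efflux carrier, had differences of 1.79 for CRF6oe minus WT and -0.93 for crf6 minus WT. AT5G52050 ranged over 5.36 to 7.28 in CRF6oe, 2.59 to 5.02 in crf6 and 3.40 to 5.94 in WT, and in each condition the CRF6oe arrays were highest and the crf6 arrays lowest. ASPGB1, an asparaginase, had differences of 1.11 for CRF6oe minus WT and -0.53 for crf6 minus WT. FAMT, a methyltransferase that acts on farnesoic acid, had differences of 1.93 for CRF6oe minus WT and -0.53 for crf6 minus WT, and its crf6 difference was -0.0047 against the WT arrays numbered 2. PAP85, a vicilin-like seed storage protein, was higher in crf6 than in WT by 0.56 against the WT arrays numbered 2 and lower by a difference of -1.77 against those numbered 1, so its crf6 direction depended on the WT arrays used. The WT arrays of PAP85 ranged over 3.95 to 7.23.

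In all, 111 crf6-low genes are known here by locus code, AT5G52050 among them. AT4G22470 came next to PDF1.4 in its CRF6oe difference, at 3.15 for CRF6oe minus WT and -0.94 for crf6 minus WT. AT2G01023 followed at 2.97 for CRF6oe minus WT and -0.80 for crf6 minus WT, and ranged over 9.32 to 11.10 in CRF6oe, 5.47 to 8.03 in crf6 and 7.18 to 7.75 in WT. AT1G53625 had the largest of the smaller differences, at 1.48 for CRF6oe minus WT and -1.12 for crf6 minus WT, and its 6 crf6 arrays (3.46 to 4.29) lay below its 6 WT arrays (4.41 to 5.77). AT5G44585 and AT1G36622 came after it by the same measure, at 2.22 and 2.44 for CRF6oe minus WT and -1.07 and -1.06 for crf6 minus WT. AT1G36622 ranged over 7.44 to 8.46 in CRF6oe, 3.73 to 5.11 in crf6 and 4.88 to 6.69 in WT, so its CRF6oe arrays lay above all WT arrays. AT5G44585 overlapped between CRF6oe and WT, and its crf6 difference was -1.93 against the WT arrays numbered 1 and -0.22 against those numbered 2. AT2G22880, AT1G77640, AT4G37220 and AT1G05340 had 1.06, 0.98, 1.36 and 1.21 for CRF6oe minus WT, beside -1.005, -1.10, -0.97 and -0.95 for crf6 minus WT. Of these 4 genes, AT1G05340 had all CRF6oe arrays (7.06 to 7.82) above all WT arrays (5.90 to 6.89). AT1G51820 had the largest crf6 difference of the set, -1.44, which was -2.40 against the WT arrays numbered 1 and -0.47 against those numbered 2. The 3 crf6-low genes that separated all genotypes were picked out after their values were seen, and AT2G23100 is one of them. AT2G23100 ranged over 5.14 to 5.60 in CRF6oe, 2.59 to 2.94 in crf6 and 3.09 to 3.72 in WT, at 1.81 for CRF6oe minus WT and -0.69 for crf6 minus WT.

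Among the 14 crf6-high genes with a symbol, several code for chloroplast proteins. PWD, an enzyme that phosphorylates starch at the start of its breakdown, stood at 6.84 and 7.76 with H2O2, 7.63 and 7.21 with BA and 7.04 and 7.85 untreated in CRF6oe. In crf6, PWD stood at 9.61 and 9.73 with H2O2, 9.55 and 9.72 with BA and 9.74 and 9.91 untreated. WT arrays gave PWD 8.78 and 9.51 with H2O2, 9.05 and 9.29 with BA and 8.81 and 9.32 untreated. All 3 genotypes were separate, with CRF6oe lowest, crf6 highest and differences of -1.74 for CRF6oe minus WT and 0.58 for crf6 minus WT. THIC, which makes the pyrimidine unit of thiamine, stood at 6.21 and 7.10 with H2O2, 7.13 and 6.90 with BA and 6.84 and 7.44 untreated in CRF6oe. In crf6, THIC stood at 8.87 and 9.03 with H2O2, 8.93 and 8.81 with BA and 9.32 and 9.16 untreated. WT arrays gave THIC 7.92 and 8.48 with H2O2, 8.38 and 8.47 with BA and 8.29 and 8.61 untreated. Its genotypes were separate too, at -1.42 for CRF6oe minus WT and 0.66 for crf6 minus WT, and the crf6 difference was 0.82 and 0.50 against the WT arrays numbered 1 and 2.

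CRR21 and CRR42 act in the chloroplast NDH complex, CRR21 through editing of a plastid transcript, and OTP70 acts on plastid transcripts as well. CRR21 stood at 4.69 and 4.70 with H2O2, 4.59 and 4.13 with BA and 4.07 and 4.78 untreated in CRF6oe. In crf6, CRR21 stood at 6.43 and 6.40 with H2O2, 6.48 and 6.57 with BA and 6.55 and 6.70 untreated. WT arrays gave CRR21 5.20 and 6.12 with H2O2, 6.02 and 6.75 with BA and 5.62 and 6.19 untreated. All CRF6oe arrays lay below all WT arrays, while a WT array with BA lay above all crf6 arrays, at -1.49 for CRF6oe minus WT and 0.54 for crf6 minus WT. CRR42 ranged over 6.42 to 7.90 in CRF6oe, 8.52 to 8.71 in crf6 and 7.19 to 8.52 in WT, with the lowest crf6 array level with the highest WT array and CRF6oe overlapping WT. OTP70 ranged over 4.05 to 5.04 in CRF6oe, 6.12 to 6.60 in crf6 and 5.18 to 6.27 in WT. Cpn60beta4, a subunit of the chloroplast chaperonin, had differences of -1.16 for CRF6oe minus WT and 0.70 for crf6 minus WT on its brightest feature, but a dimmer feature of the same gene gave -0.09 for CRF6oe minus WT and -0.07 for crf6 minus WT, so its features disagree. Among 14 measured genes with CRR, OTP or Cpn60 symbols, picked after the values were seen, these 4 met the rule and 10 did not.

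The other crf6-high genes with symbols act in several parts of the cell. SCPL49, a serine carboxypeptidase-like protein, stood at 8.22 and 8.60 with H2O2, 9.21 and 8.53 with BA and 8.65 and 8.62 untreated in CRF6oe. In crf6, SCPL49 stood at 10.45 and 10.20 with H2O2, 10.07 and 10.21 with BA and 10.26 and 10.44 untreated. WT arrays gave SCPL49 9.58 and 9.84 with H2O2, 9.36 and 9.46 with BA and 9.61 and 9.78 untreated. The 3 genotypes did not overlap, at -0.97 for CRF6oe minus WT and 0.66 for crf6 minus WT. TBL24, of a family that acetylates cell wall polysaccharides, ranged over 5.43 to 5.96 in CRF6oe, 6.82 to 7.20 in crf6 and 6.08 to 6.66 in WT, again without overlap. TUB1, a beta-tubulin, ranged over 3.36 to 4.57 in CRF6oe, 4.93 to 6.67 in crf6 and 3.68 to 6.28 in WT, and its crf6 difference was 1.20 against the WT arrays numbered 1 and 0.11 against those numbered 2. ATC, a relative of the flowering repressor TFL1, ranged over 3.58 to 6.13 in CRF6oe, 4.92 to 8.29 in crf6 and 3.48 to 8.34 in WT, with its values under each treatment given beside the BA test. ECS1 ranged over 8.52 to 10.49 in CRF6oe, 11.14 to 12.19 in crf6 and 9.69 to 12.14 in WT. The multicopper oxidase-like gene sks15, the thaumatin-like ATLP-1 and DJ1F, of the DJ-1 family, had differences of -0.74, -0.60 and -1.09 for CRF6oe minus WT and of 0.61, 0.57 and 0.53 for crf6 minus WT.

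Of the crf6-high genes with a locus code only, AT5G14650 had the largest crf6 difference of all 213 genes. AT5G14650 stood at 4.15 and 3.48 with H2O2, 5.72 and 6.62 with BA and 4.44 and 4.45 untreated in CRF6oe. In crf6, AT5G14650 stood at 4.99 and 4.85 with H2O2, 9.12 and 9.01 with BA and 7.35 and 7.72 untreated. WT arrays gave AT5G14650 4.23 and 3.67 with H2O2, 7.28 and 7.31 with BA and 4.86 and 5.92 untreated. The crf6 arrays lay above the WT arrays in each condition, and the mean differences were -0.74 for CRF6oe minus WT and 1.63 for crf6 minus WT. AT1G31690 had the largest CRF6oe difference, at -2.07 for CRF6oe minus WT and 0.90 for crf6 minus WT, and ranged over 4.14 to 5.94 in CRF6oe, 6.77 to 8.43 in crf6 and 5.97 to 7.65 in WT. AT1G10640, at -1.94 for CRF6oe minus WT and 0.93 for crf6 minus WT, and AT1G62630, at -1.93 for CRF6oe minus WT and 0.91 for crf6 minus WT, also had all 6 CRF6oe arrays below all 6 WT arrays. AT1G07050 had the largest of the smaller differences in this direction, at -1.31 for CRF6oe minus WT and 1.05 for crf6 minus WT. It ranged over 2.68 to 4.63 in CRF6oe, 5.71 to 6.29 in crf6 and 4.15 to 5.47 in WT, so all crf6 arrays were above all WT arrays, while CRF6oe and WT overlapped. AT1G78020, at -1.34 for CRF6oe minus WT and 0.94 for crf6 minus WT, and AT1G27480, at -0.86 for CRF6oe minus WT and 0.94 for crf6 minus WT, were likewise separate from WT in crf6 and overlapped with WT in CRF6oe. AT4G30650, AT1G60590 and AT4G12830 had -1.59, -1.14 and -1.88 for CRF6oe minus WT, beside 0.995, 0.89 and 0.82 for crf6 minus WT. In these 3 genes the CRF6oe arrays all lay below the WT arrays, and the crf6 arrays overlapped with them. AT1G68570 (NPF3.1 in the RefSeq gene table, of a transporter family) met the rule on its brightest feature, at -0.52 for CRF6oe minus WT and 0.55 for crf6 minus WT, while its other feature gave 0.09 for CRF6oe minus WT and 0.23 for crf6 minus WT.

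**Figure D4:**
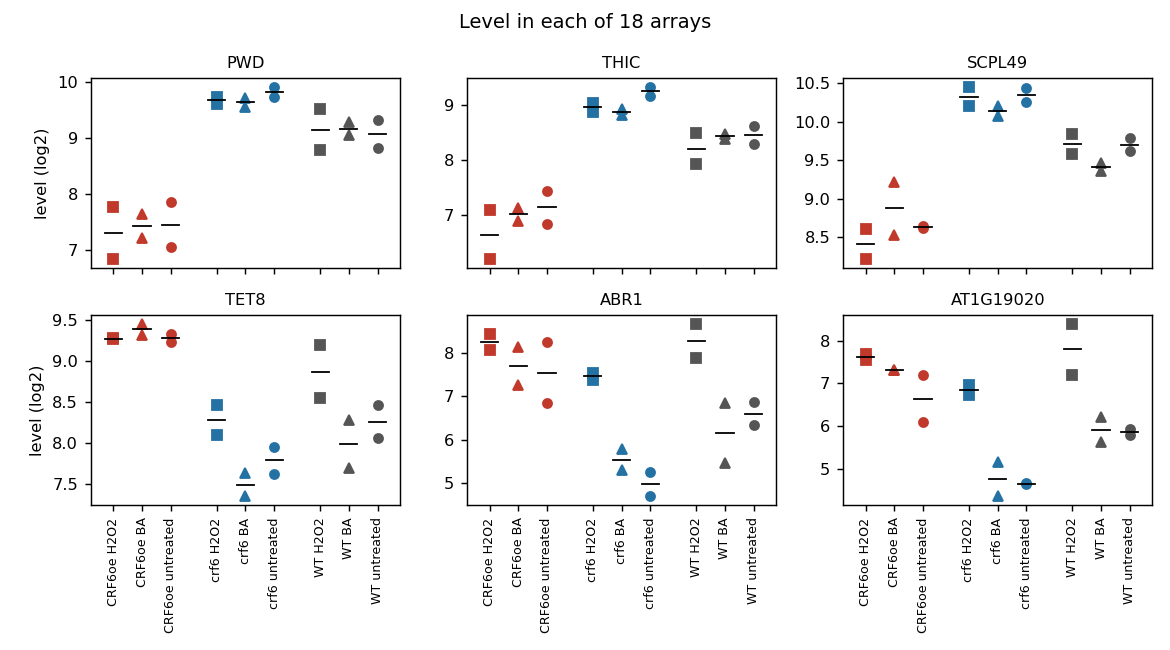
Log2 level in each of the 18 arrays for 6 genes, with CRF6oe in red, crf6 in blue and WT in grey, squares for H2O2, triangles for BA, circles for untreated and a bar at each group mean of 2 arrays. PWD, THIC and SCPL49 separate the genotypes in all conditions, whereas in TET8, ABR1 and AT1G19020 the WT arrays with H2O2 reach up toward the CRF6oe arrays.

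The rule averages over conditions and takes no difference between conditions within a genotype, but it uses the same arrays. Such differences were tested with limma over all genes (Benjamini-Hochberg adjusted p under 0.05, two-sided). Each count stands beside the share of all genes called in the same test. As the tested arrays also chose the genes, the tests are not independent of the choice. In WT, number 1 lay above number 2 on the crf6-low genes by a median of 0.93 with H2O2 and 0.55 untreated. How far the choice shifts the H2O2 changes was not tested. With H2O2 in CRF6oe, 6 of the 125 crf6-low genes were called, 2 higher and 4 lower, against 2.62% of all genes (1.41% higher and 1.21% lower). In crf6, 13 of the 125 (10.4%) rose and 2 fell, against 1.95% of all genes called, 0.864% that rose and 1.09% that fell. In WT, 20 of the 125 (16%) rose and 4 fell, against 2.87% of all genes called, 1.5% that rose and 1.37% that fell. The median change over the 125 was -0.07 in CRF6oe, 0.38 in crf6 and 0.31 in WT, against 0.05, 0.01 and -0.02 over all genes. The CRF6oe median became 0.02 after quantile normalization, so its sign is not settled. The genes that rose in crf6 and in WT had 10 in common, 76.9% of the 13 and 50% of the 20. The same overlap was not counted over all genes, so it is not read as a trait of these genes. Both genes that rose in CRF6oe, AT5G10695 and AT3G04010, also rose in crf6 and in WT. Of the 88 crf6-high genes, 0 were called in CRF6oe in limma (11 had an unadjusted p under 0.05), 4 fell in crf6, and 2 rose and 3 fell in WT.

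**Figure D5:**
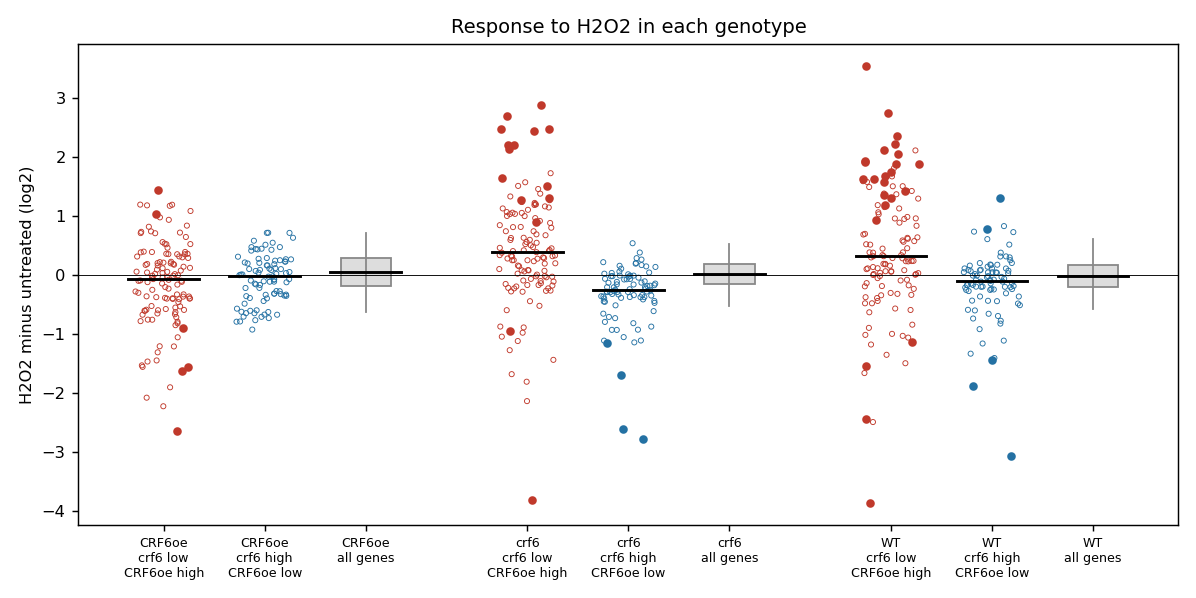
H2O2 minus untreated on the log2 scale in each genotype, for the crf6-low genes (red), the crf6-high genes (blue) and all 16548 genes (box from percentile 25 to percentile 75, line from percentile 5 to percentile 95). Filled points passed the limma test and open ones did not, and black bars are medians. The red points are shifted up in crf6 and WT, with medians of 0.38 and 0.31, and lie around 0 in CRF6oe, with a median of -0.07.

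The counts moved with the arrays left out, and so did the counts over all genes, whose ranges are given further below. In WT the 20 rises became 4 without the H2O2 array numbered 1, 29 without the H2O2 array numbered 2, 3 without the untreated array numbered 2, and 3 and 14 without all WT arrays numbered 1 or numbered 2. In crf6 the 13 rises became 0 and 5 without an H2O2 array, and 3 and 2 without an untreated array, for numbers 1 and 2. In CRF6oe the 6 calls became 0 without the H2O2 array numbered 1, 2 and 1 without an untreated array, 3 without any 1 of the crf6 arrays with BA or H2O2, and 11 without all WT arrays of either number. Of the single calls with H2O2, 0 of 6 in CRF6oe, 2 of 19 in crf6 and 1 of 29 in WT held in every alternative run. Taken with the WT arrays of 1 number at a time, the median rise of the 125 genes in WT was 0.48 for number 1 and 0.28 for number 2.

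AT1G71520 showed the largest rise with H2O2 in WT among the 213 genes. AT1G71520 stood at 6.29 and 7.24 with H2O2 and 6.34 and 5.03 untreated in CRF6oe. In crf6, AT1G71520 stood at 5.97 and 5.77 with H2O2 and 3.79 and 3.69 untreated. WT arrays gave AT1G71520 8.02 and 6.82 with H2O2 and 3.81 and 3.94 untreated. The change was 1.08 ± 0.51 (SE) in CRF6oe, which did not pass (limma adjusted p = 0.271), 2.13 ± 0.51 in crf6 (adjusted p = 0.0457) and 3.54 ± 0.51 in WT (adjusted p = 0.00097). AT1G09500 rose by 2.74 ± 0.38 in WT, and AT3G29000 rose by 2.70 ± 0.51 in crf6 and 2.35 ± 0.51 in WT. AT3G15356 had the largest rise in crf6, at 2.88 ± 0.56. ABR1 rose by 2.47 ± 0.48 in crf6 and AT5G52050 (DTX50) by 2.19 ± 0.45, while in WT they gave 1.67 ± 0.48 and 1.57 ± 0.45 and did not pass. GSTF3 rose by 1.74 ± 0.43 and SRC2 by 1.57 ± 0.37 in WT, and their crf6 changes of 0.52 ± 0.43 and 1.06 ± 0.37 did not pass. AT1G19020 rose in both, by 2.20 ± 0.38 in crf6 and 1.93 ± 0.38 in WT. AT1G72900 and AT1G57630 rose by 2.44 ± 0.50 and 2.48 ± 0.53 in crf6 and by 2.12 ± 0.50 and 2.22 ± 0.53 in WT, with values of -0.02 ± 0.50 and 0.01 ± 0.53 in CRF6oe that did not pass. AT3G04010 rose in all 3 genotypes by close amounts, 1.02 ± 0.20 in CRF6oe, 1.27 ± 0.20 in crf6 and 1.18 ± 0.20 in WT.

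Some members fell with H2O2. AT1G51840 stood at 5.19 and 6.52 with H2O2 and 8.08 and 8.91 untreated in CRF6oe. In crf6, AT1G51840 stood at 3.62 and 4.26 with H2O2 and 7.55 and 7.99 untreated. WT arrays gave AT1G51840 4.48 and 4.53 with H2O2 and 8.22 and 8.53 untreated. It fell in all 3 genotypes (CRF6oe, crf6 and WT), by 2.64 ± 0.49, 3.83 ± 0.49 and 3.87 ± 0.49 on the log2 scale, and its calls in crf6 and WT held in every alternative run. AT5G36920 and AT1G65845 fell in CRF6oe, by 1.57 ± 0.29 and 1.63 ± 0.39, and passed in neither crf6 nor WT. AT3G46280 fell by 2.44 ± 0.58 in WT, and its changes of -2.23 ± 0.58 in CRF6oe and -2.14 ± 0.58 in crf6 did not pass. AT1G51840 lies in a run of neighbouring related genes, so which of them gave the signal is uncertain. WRKY29 fell by 0.95 ± 0.21 in crf6 and by 1.15 ± 0.21 in WT, and its change in CRF6oe was -0.31 ± 0.21 (limma adjusted p = 0.462). Among crf6-high genes, AT1G52060 fell by 2.78 ± 0.61 in crf6 and by 3.07 ± 0.61 in WT, and AT4G00910 fell by 1.69 ± 0.35 in crf6 and by 1.89 ± 0.35 in WT. AT5G14650 fell by 2.61 ± 0.34 in crf6, a call that held in every alternative run, and by 1.44 ± 0.34 in WT, a call that was lost with the replicate number as a block (limma adjusted p = 0.0657). AT2G28780 fell by 1.15 ± 0.28 in crf6. ECS1 was the crf6-high gene with a symbol that rose in WT, by 1.30 ± 0.32.

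Whether the response to H2O2 itself differed between genotypes was tested as an interaction. For CRF6oe minus WT, 1 of the 213 genes was called in limma, against 0.574% of all genes (0.332% higher and 0.242% lower). This gene was AT3G51660, which stood at 9.04 and 9.59 with H2O2, 10.68 and 10.22 with BA and 10.20 and 10.22 untreated in CRF6oe. In crf6, AT3G51660 stood at 9.19 and 9.12 with H2O2, 8.80 and 8.59 with BA and 8.07 and 8.45 untreated. WT arrays gave AT3G51660 10.07 and 10.03 with H2O2, 9.33 and 9.06 with BA and 9.17 and 9.06 untreated. With H2O2 it was lower in CRF6oe and higher in crf6 and WT, by changes of -0.90 ± 0.21, 0.89 ± 0.21 and 0.93 ± 0.21, and the WT call was lost with the replicate number as a block (limma adjusted p = 0.0512). The difference of the responses was -1.83 ± 0.30 (adjusted p = 0.0225). The call was lost without the CRF6oe arrays numbered 1 with H2O2 (limma adjusted p = 0.0875) or untreated (0.0828), without the WT array with H2O2 numbered 1 (0.0556) or the untreated WT array numbered 2 (0.0925), and without all WT arrays numbered 1 (0.121) or 2 (0.147). The median of the difference was -0.54 over the 125 crf6-low genes, of which 97 were below 0, and 0.05 over all genes. With the WT arrays of 1 number at a time it was -0.84 for number 1 and -0.31 for number 2. The same arrays took part in the choice of genes, so this median is not independent of it. Differences of -1.81 ± 0.45 for EXO, -2.44 ± 0.84 for GH3.3, -2.46 ± 0.72 for AT1G71520 and, in the other direction, 2.32 ± 0.49 for the crf6-high gene AT4G00910 did not pass (adjusted p = 0.0991, 0.231, 0.155 and 0.0505 in limma). For crf6 minus WT, limma called 0 of the 213 genes and 0% of all genes, with 6 and 480 genes at an unadjusted p under 0.05.

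The response to BA was tested as the mean over the 3 genotypes. Of the 125 crf6-low genes, 3 rose and 0 fell in limma (12 had an unadjusted p under 0.05), and of the 88 crf6-high genes, 2 rose and 6 (6.82%) fell, against 2.54% of all genes called, 1.61% that rose and 0.937% that fell. After centring every array on its own median, the split was 173 higher and 291 lower over all genes, in place of 266 and 155 (211 and 223 after quantile normalization), and 1 higher and 9 lower among crf6-high genes. ATC had the largest fall. ATC stood at 5.60 and 5.43 with H2O2, 3.81 and 3.58 with BA and 3.65 and 6.13 untreated in CRF6oe. In crf6, ATC stood at 7.27 and 8.29 with H2O2, 5.19 and 4.92 with BA and 7.73 and 7.89 untreated. WT arrays gave ATC 7.24 and 8.34 with H2O2, 3.48 and 3.95 with BA and 6.60 and 7.33 untreated. The BA arrays of crf6 and WT lay far below their untreated arrays, while in CRF6oe an untreated array was as low as the BA arrays, and the mean change was -2.40 ± 0.34 (adjusted p = 0.00125). AT4G00910 fell by 1.38 ± 0.20, sks15 by 1.04 ± 0.23 and ECS1 by 0.73 ± 0.18. AT5G14650 rose by 1.72 ± 0.20, against its falls with H2O2 in crf6 and WT, and both BA arrays were above both untreated arrays in each genotype. AT2G15220 rose by 0.57 ± 0.14 and AT2G28780 fell by 0.65 ± 0.16. Among crf6-low genes, AT5G05965 rose by 1.58 ± 0.35, AT5G48110 by 0.99 ± 0.16 and AT4G16008 by 0.95 ± 0.15. The calls of ATC, AT4G00910, AT5G14650 and AT4G16008 held in every alternative run, and the 11 calls in all became 4 without all WT arrays numbered 2, 5 without the crf6 array with BA numbered 1, and 5 without the CRF6oe array with BA, the CRF6oe untreated array or the WT untreated array numbered 2. They became 6 without the crf6 untreated array or the WT array with BA numbered 2, and 7 without the crf6 array with BA numbered 2 or the crf6 untreated array numbered 1. For the BA response of CRF6oe or crf6 minus that of WT, limma called 0 of the 213 genes and 0% of all genes. An unadjusted p under 0.05 was found for 14 members and 760 genes in CRF6oe, and for 0 members and 283 genes in crf6.

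Genes of cytokinin signalling and stress were looked up in 19 lists, of which 14 genes in all had a named feature and 0 belong to the 213. No listed cytokinin receptor, phosphotransfer protein, type-B regulator or CRF had a named feature, nor had any listed gene of the salicylic acid, phosphate, nitrate, aliphatic glucosinolate or hypoxia responses. The type-A response regulators ARR15 and RR16, which damp cytokinin signalling and are induced by it, both rose with BA, by 3.83 ± 0.20 and 2.89 ± 0.17 in limma over the 3 genotypes. Their differences from WT were of the same sign as each other in neither genotype, at -0.64 and 0.83 for CRF6oe minus WT and -0.45 and 0.25 for crf6 minus WT. UGT76C2, which glucosylates cytokinin, rose by 1.59 ± 0.12 with BA and fell by 0.93 ± 0.21 with H2O2 in crf6, and UGT76C1 was called in no test. The H2O2 changes of UGT76C2 in CRF6oe and WT, 0.03 and -0.39, did not pass. AT2G21640, from the oxidative stress list, rose with H2O2 in WT by 1.51, and its changes of 0.75 in CRF6oe and 0.61 in crf6 did not pass. SAG29 (senescence), PDF1.2 and THI2.1 (jasmonate), GI (clock), AT1G47400 (iron), DFR and UF3GT (anthocyanin) were called in no test. Of the markers of cell types, EXPA7 (root hair) was called in no test, and FMA (guard cell lineage) fell by 0.90 with H2O2 in CRF6oe. The changes of FMA in crf6 and WT, -0.63 and -0.43, did not pass. Its differences from WT over conditions were -0.21 for CRF6oe and -0.19 for crf6. No listed seed or green tissue marker had a named feature, so the seedling label could not be checked on them.

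By chromosome in the TAIR10.1 gene table, 74 of the 213 genes (34.7%) lie on chromosome 1, against 25.7% of all measured genes. Chromosome 3 holds 14.6% against 20.3%. No plastid-encoded gene is among them. There were 10 pairs of members with at most 2 protein-coding genes between them, and in 9 of these both genes moved the same way. Such pairs were not counted over all measured genes, so nothing is read from these numbers. The pairs WES1 (AT4G27260) with AT4G27280, AT1G51820 with AT1G51840, and AT5G19230 with AT5G19240 are crf6-low, and AT1G30250 with AT1G30260 and AT1G53035 with AT1G53040 are crf6-high. AT1G68600 and AT1G68620 moved in opposite ways. Close relatives among neighbours can share probe signal, which was not tested. The measured genes within 5 genes of CRF6 on chromosome 3 had crf6 minus WT of -0.13 to 0.31 and CRF6oe minus WT of -0.75 to 0.24, and none of them met the rule. In CRF6oe, AT3G61590, AT3G61610, AT3G61670 and AT3G61680 had -0.75, -0.69, -0.73 and -0.59. A CRF6oe difference of at least 0.5 in size was found for 5390 of all 16548 genes, so nothing is read from these neighbours.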

How the data were processed

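RNA of whole seedlings was labelled with biotin as cRNA primed from poly(A) tails and measured on 18 one-colour arrays, per the labels' protocols. The authors' deposited table gives each array 1 value for each feature. The labels name no scale for it, and log2 was read from the deposited values, whose array medians ran from 4.63 to 4.98. For background correction, normalization, centring and genome build, the sources used here give nothing. Of 38408 features, 16722 were paired with 1 gene, 759 with several and 20927 were not listed in the platform's probe table. In the RefSeq gene table for TAIR10.1, 16574 of the 16722 matched. The brightest feature stood for a gene, which left 16548 genes.

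A model of 9 group means was fitted to all 18 arrays with limma 3.58.1 in R 4.3.3, and p-values were adjusted by Benjamini-Hochberg over the 16722 features (call at an adjusted p under 0.05). Errors of changes are standard errors of this fit (n = 2 arrays per group), with 9 residual and 5.63 prior degrees of freedom. The number of arrays limits the precision. The members, lists, tests and alternatives were chosen with earlier results of these data known. Named genes are every member with a symbol, the 10 of each direction with the largest smaller difference, up to 5 called members per test and direction, and called genes of the lists, and genes named beyond this rule were picked after their values were seen. Replicate numbers were not a block in the fit as reported. In WT, same-numbered arrays deviated together between conditions (correlations of 0.218 to 0.331 over genes), so the numbers pair the WT arrays, and a blocked value stands beside WT calls that it ends; this pairing comes from the data, not the labels. Alternatives were another scaling, filter, threshold, set of features or arrays, the block, and leaving out arrays. No sequence was used.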

Additional observations from a re-analysis of the deposited data

Results flagged for a closer look

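AT3G51660 was singled out because its response to H2O2 differed between CRF6oe and WT by a test of the difference itself. The value was -1.83 ± 0.30 (SE) on the log2 scale (limma adjusted p = 0.0225), with both CRF6oe arrays lower and both WT arrays higher with H2O2 than untreated. The adjusted p was 0.0689 when unnamed features were tested too, 0.12 with a fit of only the arrays compared, and 0.0148 to 0.147 when arrays were left out.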

How the results depend on the processing

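Counts of called members depended on the features and arrays fitted, and the causes were not tested beyond what each alternative leaves out. Testing unnamed features too gave 3 calls with H2O2 in CRF6oe (6 in the fit as reported), 8 in crf6 (19), 18 in WT (29), 6 with BA (11) and 0 for the H2O2 response of CRF6oe minus WT (1), with 6 (13) and 12 (20) crf6-low genes that rose in crf6 and WT and 3 (6) crf6-high genes that fell with BA. Fitting only the arrays compared gave 1 call in CRF6oe, 25 in crf6, of which 18 were crf6-low genes that rose, and 7 in WT, of which 2 were. It gave 12 calls with BA and 0 for the difference of responses. In this fit crf6 had more calls than WT, the reverse of the fit as reported. The replicate block gave 13 calls in CRF6oe, 29 in crf6, 42 in WT (28 of them crf6-low genes that rose) and 3 for the difference of responses. No counts over all genes stand beside the block counts, or beside the crf6 and BA counts from only the arrays compared. None of these counts is read as a trait of the members. Replicate differences correlated between conditions at 0.0422 to 0.0627 in crf6 and -0.202 to 0.167 in CRF6oe, where the arrays share only a number. With the block, 6 single calls were lost: AT3G51660 with H2O2 in CRF6oe (adjusted p = 0.061), crf6 (0.0834) and WT (0.0512), AT1G71520 in crf6 (0.0504), AT5G14650 in WT (0.0657) and AT2G15220 with BA (0.0635). With arrays left out, the calls ranged from 0 to 11 in CRF6oe, 2 to 27 in crf6, 6 to 36 in WT, 4 to 11 with BA and 0 to 3 for the difference of responses. The crf6-low genes that rose ranged from 0 to 19 in crf6 and 3 to 29 in WT, and the crf6-high genes that fell with BA from 2 to 5. All genes called ranged from 95 to 551 in CRF6oe (433 as reported), 97 to 367 in crf6 (323), 175 to 525 in WT (475), 157 to 468 with BA (421) and 0 to 100 for the difference of responses (95). Over all genes, testing unnamed features too gave 185, 203, 312, 272 and 10 in the same order, and fitting only the arrays compared gave 30 in CRF6oe, 155 in WT and 1 for the difference of responses. For the BA response of CRF6oe minus WT (0), the block called 1 gene and fits with arrays left out 0 to 5. With H2O2 in CRF6oe the members' split of 2 higher and 4 lower became 2 and 2 after quantile normalization and 1 and 4 with centred arrays. The number of members was 414 at a threshold of 0.4 and 104 at 0.6, 201 after quantile normalization (193 shared with the 213), 204 with centred arrays (191 shared), and 94 to 348 with arrays left out, where the lowest and highest come from the WT numbers left out after seeing the data. No called change of a member was turned in direction by the alternatives run, and changes that did not pass were not checked for this. The balance of BA calls over all genes was turned, from more higher (266 of 421) to more lower with either other scaling. The lower calls were 291 with centred arrays and 223 after quantile normalization. A standard error of about 0.23 for 2 arrays against 2 leaves small changes undetected.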

Other observations

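The 9 genes that met the same thresholds and were left out by name hold cold and dehydration proteins and wall and sugar-transfer enzymes. COR15A and COR15B, which protect chloroplast membranes in the cold, had -1.98 and -2.74 for CRF6oe minus WT and 1.54 and 1.43 for crf6 minus WT, and KIN2 had -0.81 and 0.65. GH9B13, EXPB3, UGT84A4 and UGT72E2 were also lower in CRF6oe and higher in crf6, at -1.15, -2.21, -0.53 and -0.66 for CRF6oe minus WT. STZ, a zinc finger stress regulator, and XTH18, a xyloglucan enzyme, had the opposite pattern, at 1.03 and 0.69 for CRF6oe minus WT and -1.08 and -0.77 for crf6 minus WT. These are values from the contrasts of the rule, with no test.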
